A study of Mus musculus with 12 samples.

Results

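C166 cells, a mouse line labelled as endothelial, that carried either of 2 short hairpin RNAs (shRNAs) against the Vegfa promoter were compared as a pool with cells that carried the vector without an shRNA. All 12 arrays of the series entered the comparison, 8 from the shRNA groups and 4 from the control group, assigned by their labels. The 2 shRNA groups had equal weight, and 17306 of 17370 probe sets, the non-control ones, were tested. The comparison asks what carrying a promoter shRNA did, whatever the direction in which Vegfa moved.

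All 3 groups received a lentiviral vector that encodes green fluorescent protein (GFP), at a multiplicity of infection of 10 and 20% confluency. The GFP group carried that vector with no shRNA. The VEGF-down group carried in addition an shRNA that lowers VEGF-A and the VEGF-up group one that raises it, each complementary to another stretch of the promoter. Medium was replaced at 72 h and cells were collected at day 7, when over 99% of them were GFP-positive per the labels. Each group had 4 arrays. With 1 construct per direction and a control vector without any hairpin, effects of shRNAs in general and of these 2 constructs cannot be told apart. The vector itself was shared by all 3 groups. The labels do not state whether the arrays of a group came from separate cultures, so the p-values cover the spread among these arrays alone, which may be technical.

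Vegfa encodes the main secreted growth factor of endothelial cells, which signals through the receptor Kdr. An shRNA is cut by Dicer into a small RNA that is loaded onto an Argonaute protein, and a small RNA that matches a promoter can lower or raise transcription of the gene in place of cutting its mRNA. Known effects of shRNA vectors beyond the intended gene are pairing of the small RNA's seed with other mRNAs, competition with microRNAs for shared proteins, and an interferon response to double-stranded RNA.

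The stretch before a Vegfa start is shown because both shRNAs address this promoter. It is the 250 bases before the start in RefSeq's promoter table (GRCm38.p6, chr17:46032378-46032627, minus strand). Capitals mark 2 matches of the GC box letters GGGCGG, which were searched on both strands and occur in the same window of 35.4% of 27025 genes. Where in the promoter the shRNAs pair is not given in the sources used here.
Vegfa: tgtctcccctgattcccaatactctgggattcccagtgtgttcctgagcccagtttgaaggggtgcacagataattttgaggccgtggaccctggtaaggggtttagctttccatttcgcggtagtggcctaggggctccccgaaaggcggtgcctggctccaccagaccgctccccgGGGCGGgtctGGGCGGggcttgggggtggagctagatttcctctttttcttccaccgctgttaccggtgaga

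Vegfa was reported first as a check of the labels. Its log2 levels were 7.15, 7.37, 7.13 and 7.15 on the GFP arrays, 6.46, 6.61, 6.54 and 6.55 on the VEGF-down arrays and 7.35, 7.66, 7.68 and 7.48 on the VEGF-up arrays. Every VEGF-down array lay below the GFP arrays, and 3 of the 4 VEGF-up arrays lay above them, the fourth being just under GFP replicate 2. Pooled, Vegfa did not pass the test, with a log2 difference from GFP of -0.16 ± 0.07 (standard error of the fit, limma adjusted p = 0.103). When the 8 shRNA values were set against the 4 GFP values, an exact permutation test, two-sided over 495 arrangements, gave p = 0.574, where 0.00202 is the smallest p it can give. VEGF-up exceeded VEGF-down by 1.004 ± 0.08 (adjusted p = 1.74e-06). With the arrays scaled to spiked-in control RNA, the pooled Vegfa difference was -0.40 and passed (adjusted p = 9.69e-06).

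Array median intensities ran from 35.6 to 37.1, and 62.7% to 63.6% of probe sets lay above a log2 level of 3.07, the background level, which is the 95th percentile of 68 chemosensory receptor probe sets. The poly-A spike-in probe sets, which read added control RNA, averaged 7.30 in GFP, 7.61 in VEGF-down and 7.47 in VEGF-up, so scaling to them lowers the shRNA groups relative to GFP. By array they ran from 7.13 to 7.47 in GFP, 7.48 to 7.71 in VEGF-down and 7.43 to 7.51 in VEGF-up. The GFP arrays thus spread widely and overlapped VEGF-up, which limits what spike-in scaling can show. The 3' minus 5' difference of the actin probe sets, a measure of RNA quality, was 0.75 to 0.79 log2 units in GFP, 0.74 to 0.78 in VEGF-down and 0.77 to 0.89 in VEGF-up. It was highest on VEGF-up replicate 3, the array whose omission moved the counts of calls most, and its part in the results was not tested. The number of arrays limits the precision of all values. Of 24 endothelial markers measured, 14 were at background in all 3 groups, among them the junction proteins Pecam1 (2.43 to 2.45 in GFP) and Cdh5 (2.60 to 2.63 in GFP), so defining markers of the labelled cell type were not above background. The mesothelial markers Upk3b (11.57 to 11.76 in GFP, 12.05 to 12.09 in VEGF-down and 11.56 to 11.64 in VEGF-up) and Wt1 (9.93 to 10.14 in GFP, 10.09 to 10.31 in VEGF-down and 10.13 to 10.14 in VEGF-up) were bright on all arrays. Other markers of the 14 on that list were not. Krt8 was at background in GFP and VEGF-up (means of 2.20 and 2.19), and Krt19 and Prg4 averaged 4.52 and 5.47 in GFP. These markers therefore do not settle the cell type. Of 13 blood cell and macrophage markers, 9 were at background in all groups, and 1 fell, Cd14, while none rose.

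Pooled over both shRNAs, 3659 of 17306 probe sets passed the test (21.1%, limma, Benjamini-Hochberg adjusted p under 0.05). Of these 1674 rose (9.67%) and 1985 fell (11.5%). Among calls, the median absolute difference was 0.21 log2 units. Of the calls, 298 reached 1.5-fold (136 rises, 162 falls) and 80 reached 2-fold (37 rises, 43 falls). At an unadjusted p under 0.05 there were 7464.

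Most calls were unequal between the shRNAs. VEGF-up and VEGF-down differed for 2504 of the 3659, and for 5288 of all probe sets (30.6%), in a contrast that uses no GFP array. Among rises, VEGF-down was the higher in 1109 and VEGF-up in 168, and among falls, VEGF-up was the higher in 1047 and VEGF-down in 180. Side by side, VEGF-down against GFP passed for 5358 probe sets (31%) and VEGF-up against GFP for 2291 (13.2%), comparisons that share the GFP arrays. A further 2784 probe sets differed between the shRNAs with no pooled call. At background in all 3 groups were 327 of the falls and 1 rise, where the median span of the 4 arrays of a group is 0.014 log2 units.

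Changes common to every array were fewer. In 948 calls (5.48%) all 8 shRNA arrays lay on one side of all 4 GFP arrays, 440 above (2.54%) and 508 below (2.94%). Counts of list members on all 8 arrays, given below, are to be read beside these shares of 2.54% above and 2.94% below. Without regard to p, 1027 probe sets (5.93%) did not overlap. Of like size were 2560 calls (14.8%), 1133 rises (6.55%) and 1427 falls (8.25%), meaning that the 95% interval of VEGF-up minus VEGF-down lay within 1.5-fold either way. Because small changes meet that bound easily, the 62 of them that also reached 1.5-fold are the stricter count, with 15 rises and 47 falls. A fit with 1 common mean for the 8 shRNA arrays, in which the difference between the shRNAs counts as spread, called 738 probe sets, 323 up and 415 down. It called 60 of those 62, which were picked on the same arrays for a small difference between the shRNAs. That outcome was largely set by the choice and adds no support. With spike-in scaling the median of all probe sets moved from -0.01 to -0.25, and 306 rose while 14397 fell.

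Serpinb1a, an inhibitor of neutrophil proteases, rose on all shRNA arrays. Its log2 levels were 5.84, 5.69, 5.66 and 5.68 on the GFP arrays, 7.06, 6.91, 6.71 and 6.98 on the VEGF-down arrays and 6.98, 7.33, 7.06 and 7.11 on the VEGF-up arrays. VEGF-down and VEGF-up overlapped each other and lay above all 4 GFP arrays. Serpinb1a rose 2.46-fold pooled (1.30 ± 0.08 log2, adjusted p = 6.92e-07), and VEGF-up minus VEGF-down was 0.20 ± 0.09, with an interval of 0.01 to 0.40. Ddah1, which degrades an inhibitor of nitric oxide synthesis, was at 7.03, 7.31, 7.18 and 7.31 on the GFP arrays, 7.999, 8.01, 7.98 and 7.998 on the VEGF-down arrays and 7.94, 8.07, 7.92 and 8.02 on the VEGF-up arrays. Here too the shRNA groups overlapped each other and not GFP. Ddah1 rose by 0.79 ± 0.05, with differences from GFP of 0.79 in VEGF-down and 0.78 in VEGF-up, and the interval of the difference between the shRNAs was -0.13 to 0.12.

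Other rises seen on all 8 arrays were larger in VEGF-down. Krt19, a keratin of simple epithelia and mesothelium, was at 4.52, 4.66, 4.57 and 4.35 on the GFP arrays, 6.48, 6.78, 6.22 and 6.50 on the VEGF-down arrays and 5.36, 5.48, 5.32 and 5.62 on the VEGF-up arrays. The 3 groups were separate, and Krt19 rose by 1.45 ± 0.10. Tnfsf9, a co-stimulatory ligand for T cells, was at 5.20, 5.61, 5.24 and 5.23 on the GFP arrays, 9.63, 9.66, 9.48 and 9.71 on the VEGF-down arrays and 6.15, 6.08, 5.93 and 5.9998 on the VEGF-up arrays. It rose 19.7-fold in VEGF-down and 1.65-fold in VEGF-up, and no longer passed with a common mean (adjusted p = 0.117). Il6, an inflammatory cytokine, was at 4.79, 5.84, 5.63 and 5.17 on the GFP arrays, 7.08, 7.41, 7.33 and 7.14 on the VEGF-down arrays and 6.03, 6.06, 6.14 and 6.02 on the VEGF-up arrays. It rose by 1.29 ± 0.16, from GFP arrays spread over 1.05 log2 units, and did not pass with a common mean (adjusted p = 0.0602).

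Serpinb9b, a serpin of the same gene cluster as Serpinb1a, rose by 1.32 ± 0.05, and Itga6, a laminin-binding integrin subunit, by 1.01 ± 0.07. Adgrg2, an adhesion-type receptor, rose by 0.96 ± 0.04. Bdnf, a neurotrophin, rose by 0.82 ± 0.04 and Gprc5b, an orphan receptor, by 0.73 ± 0.04. Both met the bound of like size, yet were higher in VEGF-down (1.04 against 0.59 for Bdnf, adjusted p of the difference 6.74e-06, and 0.96 against 0.49 for Gprc5b, adjusted p = 1.50e-05). Hoatz rose by 1.997 ± 0.13, with 2.80 in VEGF-down and 1.20 in VEGF-up, and Ly6f by 0.63 ± 0.15, with 0.65 and 0.61. Serpinb9b (1.60 against 1.04), Itga6 (1.30 against 0.72) and Adgrg2 (1.14 against 0.79) were also higher in VEGF-down. For these 3 and Hoatz the limma adjusted p of the difference between the shRNAs was at most 0.000174. Ctif, a translation initiation factor, rose by 1.32 ± 0.28, from GFP arrays of 3.37 to 5.33, the widest GFP range among the named genes.

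H19, an imprinted long non-coding RNA, had the largest pooled fall among the named genes. Its levels were 10.36, 9.93, 10.34 and 10.48 on the GFP arrays, 5.62, 5.61, 5.62 and 5.61 on the VEGF-down arrays and 8.61, 8.88, 8.65 and 8.70 on the VEGF-up arrays. The 3 groups were separate, with VEGF-up between the others. H19 fell by 3.11 ± 0.09 pooled (adjusted p = 4.55e-09), being -4.66 in VEGF-down and -1.56 in VEGF-up, and missed the threshold with a common mean (adjusted p = 0.0548). The 4 VEGF-down values spanned 0.015 log2 units, against a median span of 0.14 for probe sets of levels 5 to 7, so the fold may be a lower bound, which was not tested.

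Agt, the precursor of angiotensin, fell on all shRNA arrays. It was at 7.70, 7.37, 7.41 and 7.60 on the GFP arrays, 6.12, 6.12, 6.12 and 5.99 on the VEGF-down arrays and 6.12, 6.21, 6.13 and 6.12 on the VEGF-up arrays. All 8 shRNA arrays lay below all GFP arrays, most of them near 6.12, so here too a floor of the probe set was not tested. Agt fell by 1.40 ± 0.06, and the difference between the shRNAs had an interval of -0.09 to 0.21. Myh1, a skeletal muscle myosin heavy chain, was at 5.27 to 5.86 in GFP, 4.03 to 4.08 in VEGF-down and 4.10 to 4.14 in VEGF-up. It fell by 1.495 ± 0.09, again to flat values. Hal, which starts histidine breakdown, was at 7.64 to 7.97 in GFP, 6.49 to 6.61 in VEGF-down and 6.58 to 6.64 in VEGF-up. It fell by 1.18 ± 0.05, with -1.21 and -1.16 in the 2 groups.

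Aldoc, a glycolytic aldolase, fell by 1.54 ± 0.08, Ptgds, a prostaglandin D synthase, by 1.10 ± 0.15 and Hmox1, which breaks down haem, by 0.98 ± 0.07. These 3 met the bound of like size. Yet Aldoc (-1.71 against -1.36, limma adjusted p of the difference 0.0124) and Hmox1 (-1.13 against -0.83, adjusted p = 0.0143) fell further in VEGF-down than in VEGF-up. Several secreted proteins fell on all 8 arrays but further in VEGF-down. Sfrp2, a Wnt modulator, fell by 1.95 ± 0.08, and the small proteoglycans Aspn and Fmod fell by 1.98 ± 0.08 and 1.29 ± 0.08. Angptl7, a secreted angiopoietin-like protein, fell by 1.64 ± 0.06, and Hp, the haemoglobin-binding protein haptoglobin, by 1.22 ± 0.04. Ehd3, an endocytic recycling protein, fell by 1.43 ± 0.04. Of the 24 genes ranked by the smaller of their 2 differences, 21 also passed with a common mean. They were picked on the same arrays for changing in both shRNA groups, so this adds no support.

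The largest pooled differences outside that ranking came mostly from VEGF-down. Vat1l, a relative of a vesicle transport protein, was at 3.04 to 3.11 in GFP, 8.11 to 8.32 in VEGF-down and 3.05 to 3.10 in VEGF-up. Its VEGF-up arrays overlapped GFP, both groups lying close to the background level of 3.07, yet the pool rose by 2.54 ± 0.04. Kdr, the Vegfa receptor, was at 4.96, 4.96, 4.96 and 4.96 on the GFP arrays, 8.22, 8.35, 8.31 and 8.30 on the VEGF-down arrays and 5.20, 5.42, 5.75 and 5.51 on the VEGF-up arrays. Kdr rose on all 8 arrays, 10.1-fold in VEGF-down and 1.42-fold in VEGF-up, over GFP values flat to within 0.004, so these folds may be lower bounds, which was not tested. Dkk2, a Wnt modulator, was 3.78 from GFP in VEGF-down and -0.19 in VEGF-up. The keratins Krt8 and Krt76 and the organic anion transporter Slco1a5 were at background in GFP and VEGF-up and at least 5.999-fold, 7.74-fold and 6.25-fold higher in VEGF-down.

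Falls of that kind were Tnnt2, cardiac troponin T (-4.19 in VEGF-down and -0.88 in VEGF-up), Postn, the matrix protein periostin (-3.13 and -0.77), and Saa3, an acute phase protein (-2.84 and -0.85). Sema3d, a guidance cue, differed by -2.85 and -0.66, and Lum, a proteoglycan, by -2.99 and -0.46. Agtr1a, the angiotensin receptor, differed by -2.75 in VEGF-down and by -0.46 in VEGF-up, where it did not pass (adjusted p = 0.1). None of these 12 genes passed with a common mean (adjusted p from 0.0727 for Saa3 to 0.221 for Dkk2). They are what was left after the genes with the largest shared changes were taken, so this follows in part from the choice.

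In the RNA interference machinery, 2 rose and 1 fell of 18 measured (16.7%, against 21.1% of all probe sets), none on all 8 arrays. Ago1, an Argonaute, fell by 0.31 ± 0.04, its partner Tnrc6b rose by 0.28 ± 0.03, and Snd1, a nuclease linked to the silencing complex, rose by 0.12 ± 0.04. Tnrc6b was at 9.51 to 9.69 in GFP, 10.15 to 10.24 in VEGF-down and 9.48 to 9.58 in VEGF-up. Snd1 was at 10.17 to 10.29, 10.19 to 10.24 and 10.40 to 10.62 in the same order. The Tnrc6b rise was thus that of VEGF-down alone and the Snd1 rise that of VEGF-up alone. Of targets of the microRNA let-7, 4 rose and 2 fell of 15 measured (40% called against 21.1% of all probe sets). Only Hmga2 among them, a chromatin protein, lay above GFP on all 8 arrays, and it rose by 0.83 ± 0.04. Of chromatin silencing enzymes, 3 rose and 5 fell of 19 measured (42.1% called, 26.3% falling against 11.5% of all probe sets), Ehmt1 falling by 0.23 ± 0.03 and Hdac2 rising by 0.19 ± 0.04 on all 8 arrays.

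Interferon genes split between the shRNAs. Of nucleic acid sensors and interferon signalling genes, 1 rose and 5 fell of 24 measured (25% called against 21.1% of all, 4.17% rising against 9.67%), none on all 8 arrays. Ddx58, the gene of the double-stranded RNA sensor RIG-I, rose by 0.34 ± 0.04, with 0.77 in VEGF-down and -0.09 in VEGF-up. Of interferon-stimulated genes, 9 rose and 2 fell of 38 measured (23.7% rising), with no rise on all 8 arrays. Gbp2, a guanylate-binding protein of host defence, was at 5.998, 5.92, 5.93 and 5.93 on the GFP arrays, 7.66, 7.59, 7.59 and 7.57 on the VEGF-down arrays and 5.60, 5.75, 5.58 and 5.64 on the VEGF-up arrays. VEGF-down lay above and VEGF-up below GFP. In all 23 interferon-stimulated genes that differed between the shRNAs, VEGF-down was the higher, beside 30.6% of all probe sets that differed, 15.5% with VEGF-down the higher. With spike-in scaling that list had 4 rises and 19 falls, and its median turned from 0.06 to -0.18, which is 0.07 above that of all probe sets.

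Several chemokines, which attract leukocytes, fell. Of the list 2 rose and 10 fell of 27 measured (37% falling against 11.5% of all probe sets). On all 8 arrays 6 of them fell, against 2.94% of all probe sets. Ccl2, a monocyte attractant, was at 11.51, 11.48, 11.47 and 11.65 on the GFP arrays, 10.91, 10.78, 10.86 and 10.79 on the VEGF-down arrays and 10.05, 9.98, 10.01 and 9.97 on the VEGF-up arrays. The groups were separate, with VEGF-up the lowest. Ccl2 fell by 1.11 ± 0.04 (adjusted p = 1.30e-08), and Ccl7, a related attractant, by 1.14 ± 0.06. Cxcl1, a neutrophil attractant, was at 10.48, 11.30, 10.82 and 10.81 on the GFP arrays, 10.005, 10.02, 9.94 and 9.90 on the VEGF-down arrays and 9.76, 9.91, 9.99 and 10.0004 on the VEGF-up arrays. Both shRNA groups were below GFP and overlapped each other, with Cxcl1 falling by 0.91 ± 0.12. Ccl20 fell by 0.95 ± 0.09 and Cxcl5 by 0.61 ± 0.11, while Cxcl12 fell by 0.61 ± 0.02 through VEGF-down (-1.24 against 0.02). Cxcl10 fell too, but was at background in every group.

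NF-kB, a transcription factor of inflammation, induces many of these chemokines, adhesion molecules and its own inhibitors. Of that list none rose and 10 fell of 21 measured (47.6% falling against 11.5% of all probe sets). On all 8 arrays 6 of them fell, against 2.94% of all probe sets. With spike-in scaling the list had 0 rises and 20 falls, when 14397 of all 17306 probe sets fell. Vcam1, which binds leukocyte integrins, was at 10.23 to 10.35 in GFP, 9.56 to 9.68 in VEGF-down and 9.67 to 9.74 in VEGF-up. Vcam1 fell by 0.61 ± 0.03 and Icam1, of like function, by 0.56 ± 0.04. The subunit gene Relb fell by 0.35 ± 0.07, and the inhibitors Tnfaip3, Nfkbia and Tnip1 by 0.35 ± 0.06, 0.33 ± 0.03 and 0.27 ± 0.04. Nfkbie and Birc3 fell pooled through VEGF-up, at -0.57 and -0.67, against 0.06 and 0.24 in VEGF-down. Of acute phase and innate recognition genes, 1 rose and 6 fell of 17 measured (35.3% falling against 11.5% of all). Tlr2, a receptor for bacterial lipoproteins, fell by 0.55 ± 0.07. Of the interleukin-6 family and its receptors, 3 rose and 2 fell of 12 measured (25% rising against 9.67% of all). Il6 was the one rise on all 8 arrays.

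Promoters of these lists were searched for a kappa-B motif, the site NF-kB binds, as GGGA and TTCC separated by any 2 bases, on both strands of the 250 bases before each start. It was present in 1.36% of 27025 genes in RefSeq. Among genes of the chemokine and NF-kB lists with a promoter sequence, 3 of 14 that fell held it (Cxcl1, Cxcl10 and Nfkbia), and 4 of 23 that did not. The promoters of Cxcl1 (chr5:90890995-90891244, plus strand) and Nfkbia (chr12:55492648-55492897, minus strand) are shown from GRCm38.p6, as these genes fell and are above background. Capitals mark the motif, with 2 overlapping matches in Cxcl1 and 1 on the reverse strand in Nfkbia.
Cxcl1: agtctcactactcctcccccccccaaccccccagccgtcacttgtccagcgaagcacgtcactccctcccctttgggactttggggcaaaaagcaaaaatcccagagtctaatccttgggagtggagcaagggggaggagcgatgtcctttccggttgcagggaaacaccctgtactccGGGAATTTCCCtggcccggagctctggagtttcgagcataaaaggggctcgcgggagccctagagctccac
Nfkbia: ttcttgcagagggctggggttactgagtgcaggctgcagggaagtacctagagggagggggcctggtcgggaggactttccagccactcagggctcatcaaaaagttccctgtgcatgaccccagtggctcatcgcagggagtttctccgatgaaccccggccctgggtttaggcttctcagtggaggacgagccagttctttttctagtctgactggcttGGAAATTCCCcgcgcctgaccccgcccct

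Targets of p53, which induces growth arrest and repair genes, contained many rises. Of them 10 rose and 2 fell of 22 measured (45.5% rising against 9.67% of all). On all 8 arrays 8 of them rose, against 2.54% of all probe sets. With spike-in scaling there were 5 rises and 10 falls, the median turning from 0.09 to -0.15, 0.10 above that of all probe sets. Cdkn1a, the cell cycle inhibitor p21, was at 9.61, 9.95, 9.68 and 9.63 on the GFP arrays, 10.30, 10.33, 10.33 and 10.26 on the VEGF-down arrays and 10.39, 10.59, 10.45 and 10.55 on the VEGF-up arrays. Both shRNA groups were above GFP. Cdkn1a rose by 0.68 ± 0.06 (adjusted p = 1.61e-05). Perp, a junction protein, rose by 1.31 ± 0.05, Zmat3, an RNA-binding protein, by 0.77 ± 0.03, Eda2r, a receptor of the TNF receptor family, by 0.71 ± 0.07 and Ccng1, cyclin G1, by 0.501 ± 0.03. Perp was at 5.72 to 5.99 in GFP, 7.95 to 8.14 in VEGF-down and 6.33 to 6.37 in VEGF-up. Zmat3 was at 9.58 to 9.77, 10.63 to 10.74 and 10.11 to 10.19 in the same order. The shRNAs differed for 11 of the 22 targets, with VEGF-down the higher in 7 and VEGF-up in 4. Pmaip1, which promotes apoptosis, fell by 0.75 ± 0.05, with -1.51 in VEGF-down and 0.01 in VEGF-up.

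Cell cycle genes contained many falls. Of them 3 rose and 18 fell of 35 measured (51.4% falling against 11.5% of all), with a median of -0.20 beside -0.01 for all probe sets. On all 8 arrays 7 of them fell, against 2.94% of all probe sets. Mad2l1, of the spindle checkpoint, fell by 0.43 ± 0.03, Birc5, the mitotic protein survivin, by 0.46 ± 0.05, Ccnb2, a mitotic cyclin, by 0.46 ± 0.07 and Cdt1, which licenses replication, by 0.36 ± 0.03. Ccnd1, cyclin D1, rose by 0.40 ± 0.03. Of cholesterol synthesis genes, 2 rose and 9 fell of 15 measured (60% falling against 11.5% of all). Mvd and Hsd17b7, enzymes of that pathway, fell by 0.60 ± 0.06 and 0.51 ± 0.04, and Stard4, a sterol carrier, by 0.40 ± 0.03, with -0.40 in VEGF-down and -0.40 in VEGF-up.

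Genes of the unfolded protein response and of ATF4, which induces amino acid synthesis, passed the pooled test often but not for both shRNAs. Of them 4 rose and 24 fell of 34 measured (82.4% called against 21.1% of all). On all 8 arrays 1 rose and 1 fell, against 2.54% and 2.94% of all probe sets. VEGF-up was higher than VEGF-down in 31 of the 32 that differed, and the list's median was -0.66 in VEGF-down and 0.20 in VEGF-up. Asns, asparagine synthetase, was at 11.38 to 11.43 in GFP, 10.12 to 10.26 in VEGF-down and 11.65 to 11.76 in VEGF-up. The GFP arrays lay between the shRNA groups, yet Asns fell by 0.45 ± 0.03 pooled. Aldh1l2, a mitochondrial folate enzyme, fell by 1.45 ± 0.02, with -3.32 and 0.43, and Trib3, a pseudokinase, by 0.83 ± 0.05, with -2.24 and 0.59. The fall on all 8 arrays was that of Cebpb, a transcription factor, by 0.25 ± 0.03.

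The promoter of Asns is shown because it holds a known kind of C/EBP-ATF element, searched as TGATGNAA on both strands and marked in capitals (GRCm38.p6, chr6:7693210-7693459, minus strand). In the 250 bases before the start the element was found in 7 of 31 genes of this list with a sequence, and in 3.91% of all.
Asns: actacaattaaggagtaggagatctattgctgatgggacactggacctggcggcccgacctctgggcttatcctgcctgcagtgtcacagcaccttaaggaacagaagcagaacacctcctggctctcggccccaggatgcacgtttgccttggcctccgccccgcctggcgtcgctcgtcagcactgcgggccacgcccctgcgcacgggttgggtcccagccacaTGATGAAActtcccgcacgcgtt

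Of extracellular matrix genes, 5 rose and 27 fell of 42 measured (64.3% falling against 11.5% of all). On all 8 arrays 17 of them fell, against 2.94% of all probe sets. Col4a1 and Col4a2, the collagen IV chains of basement membranes, fell by 0.74 ± 0.04 and 0.72 ± 0.04, Nid2, which links basement membrane proteins, by 1.02 ± 0.06, and Col6a3, a collagen VI chain, by 0.76 ± 0.09. Lox, which crosslinks collagen, was at 11.14 to 11.23 in GFP, 10.82 to 10.91 in VEGF-down and 10.84 to 10.91 in VEGF-up. Lox fell by 0.31 ± 0.02 to overlapping levels in both shRNA groups. Vcan, a large proteoglycan, rose by 0.40 ± 0.05. Of matrix proteases and their inhibitors, 9 rose and 5 fell of 23 measured (39.1% rising against 9.67% of all). With spike-in scaling there were 5 rises and 13 falls. Timp1, an inhibitor, rose by 0.87 ± 0.04. Of smooth muscle and fibroblast markers, none rose and 11 fell of 18 measured (61.1% falling against 11.5% of all). Of the falls, 3 were on all 8 arrays, against 2.94% of all probe sets. On all 8 arrays Tagln, an actin-binding protein, fell by 0.37 ± 0.03, Mylk, myosin light chain kinase, by 1.23 ± 0.04 and Pdgfra, a growth factor receptor, by 0.61 ± 0.05. The list's median difference from GFP was -0.56 in VEGF-down and -0.04 in VEGF-up. Smooth muscle actin Actg2 was at 6.13 to 6.25 in GFP, 5.28 to 5.87 in VEGF-down and 7.16 to 7.58 in VEGF-up, and Cnn1, calponin, likewise lay above GFP on every VEGF-up array and below it on every VEGF-down array. The list's mean log2 level was 7.40 to 7.48 in GFP, 6.76 to 6.82 in VEGF-down and 7.41 to 7.46 in VEGF-up; fewer cells of a type and less RNA per cell cannot be told apart in bulk samples, and the part of these markers in the matrix result was not tested.

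Of mesothelial markers, 5 rose and 4 fell of 14 measured (35.7% rising against 9.67% of all, 28.6% falling against 11.5%). With spike-in scaling there were 4 rises and 7 falls. On all 8 arrays 2 of them rose and 3 fell, against 2.54% and 2.94% of all probe sets. The list's median difference from GFP was 0.34 in VEGF-down and -0.12 in VEGF-up. Msln, the surface protein mesothelin, rose by 1.51 ± 0.05, with 2.63 in VEGF-down and 0.39 in VEGF-up. The mean level of this list was 7.89 to 7.94 in GFP, 8.66 to 8.75 in VEGF-down and 7.72 to 7.75 in VEGF-up. Of endothelial markers, 1 rose and 3 fell of 24 measured (16.7% called against 21.1% of all), the rise being Kdr.

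In the VEGF family, 2 rose and 2 fell of 10 measured (40% called against 21.1% of all). Vegfc, a lymphatic growth factor, was at 10.15, 9.99, 10.10 and 10.12 on the GFP arrays, 9.27, 9.25, 9.24 and 9.28 on the VEGF-down arrays and 9.33, 9.24, 9.21 and 9.22 on the VEGF-up arrays. Both shRNA groups were below GFP and overlapped each other. Vegfc fell by 0.84 ± 0.03 (adjusted p = 2.60e-08). Nrp1, a co-receptor, rose by 0.30 ± 0.04, with 0.82 in VEGF-down and -0.21 in VEGF-up, and Nrp2 fell by 0.39 ± 0.04, with -0.11 and -0.66. Of imprinted growth genes, 1 rose and 8 fell of 21 measured (38.1% falling against 11.5% of all probe sets). On all 8 arrays 3 of them fell, against 2.94% of all probe sets. The list's median difference from GFP was -0.27 in VEGF-down and -0.01 in VEGF-up. VEGF-up was the higher in 11 of the 12 members that differed between the shRNAs. Igf2, a fetal growth factor whose gene neighbours H19, was at 8.004 to 8.19 in GFP, 7.40 to 7.48 in VEGF-down and 7.40 to 7.44 in VEGF-up. Igf2 fell by 0.69 ± 0.03, with overlapping shRNA groups, and Nnat, an imprinted membrane protein, by 0.68 ± 0.04. Of IGF and angiotensin genes, 5 rose and 6 fell of 19 measured (57.9% called against 21.1% of all). Enpep, which processes angiotensin, fell by 0.65 ± 0.06.

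Among the remaining lists, 2 rose and 11 fell of 20 measured of hypoxia and glycolysis genes (55% falling against 11.5% of all). Egln3, an oxygen sensor, fell by 0.93 ± 0.06 and Epas1, a hypoxia-inducible factor, by 0.41 ± 0.05. Of immediate-early genes, 3 rose and 7 fell of 20 measured (35% falling against 11.5% of all). Nr4a1, a nuclear receptor, fell by 0.76 ± 0.11. The zinc finger factors Klf2 and Egr1 fell by 0.59 ± 0.06 and 0.46 ± 0.05 on all 8 arrays. The list's mean level was 7.32 on GFP replicate 2, 6.97 to 7.05 on the other GFP arrays and 6.90 to 7.02 on the shRNA arrays. Its median difference was -0.04, against -0.006 without GFP replicate 2 and -0.10 without GFP replicate 1. Without any 1 array, 9 to 11 members were called. Among genes induced by the oxidative stress factor NRF2, 1 rose and 6 fell of 20 measured (30% falling against 11.5% of all). Hmox1 was the one fall on all 8 arrays. Of Wnt and hedgehog modulators, 4 rose and 5 fell of 22 measured (40.9% called against 21.1% of all). Their median was 0.003.

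Some genes differed from GFP in opposite directions and had no pooled call. Cdsn, a skin adhesion protein, was at 6.17 to 6.37 in GFP, 4.67 to 4.83 in VEGF-down and 7.87 to 8.21 in VEGF-up. The GFP arrays lay between the shRNA groups, and the pooled difference was 0.10 ± 0.06 (adjusted p = 0.201). Prg4, the lubricant lubricin, had the reverse order, at 5.39 to 5.60 in GFP, 7.01 to 7.19 in VEGF-down and 3.69 to 4.05 in VEGF-up, with a pooled difference of 0.02 ± 0.06. Mmp3, a matrix protease, Ces1g, a carboxylesterase, and Ifit1, an interferon-induced protein, were also higher in VEGF-down than in VEGF-up, with VEGF-up minus VEGF-down at -2.56, -3.02 and -2.05. Angptl4, a lipase inhibitor, and Chchd10, a mitochondrial protein, were higher in VEGF-up, by 1.76 and 2.08. Ly6e, a membrane-anchored protein, was at background in VEGF-down, at least 2.29-fold lower than in GFP. With an offset of 16 before the logarithm, Cdsn, Angptl4 and Prg4 passed the pooled test as rises, and Ly6e passed as a fall without GFP replicate 4 (-0.80, adjusted p = 0.0456).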

How the data were processed

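RNA of 12 samples was labelled with a 3' IVT kit and hybridised to arrays, per the labels' protocols. The deposited values are intensities, for which the submitters' processing notes name GCRMA; the version and genome build are not given in the sources used here. They ran from 3.04 to 17470.06 and were converted to log2 without an offset. Of 17306 probe sets tested, 16464 had 1 gene symbol in the platform annotation. The authors' deposited comparison tables were not used.

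With limma 3.58.1 in R 4.3.3, 1 mean per group was fitted over the 12 arrays (eBayes with trend), and the mean of VEGF-down and VEGF-up was contrasted with GFP, two-sided, adjusted over all 17306 probe sets. Errors after ± are standard errors of this fit, with n = 4 arrays per group. The code was tested on simulated data. Named are Vegfa, the 12 rises and 12 falls on all 8 arrays with the largest smaller-of-2 differences, 6 each way with the largest other pooled differences, 6 each way of like size, 4 each way without a pooled call that differ between the shRNAs, all with the brightest of their 3 group means above the median of all probe sets (for example Vat1l, Krt8, Krt76 and Slco1a5 through VEGF-down alone), and members of 26 lists (563 of 624 listed genes measured). Members and lists were chosen with earlier results of these data known. Groups share replicate numbers, but the deviations of same-numbered arrays correlated at -0.08 to 0.13 (12 pairs, 1 over 0.1), so no block was fitted. Alternatives were quantile, median and spike-in scaling, a background filter, an offset of 16, no trend, a common mean, a replicate block and leaving out each array. Promoters are RefSeq's, GRCm38.p6.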

Additional observations from a re-analysis of the deposited data

Results flagged for a closer look

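In 22 of 222 sets of 4 arrays, 1 array stood apart, its gap to the nearest other array, divided by the range of the 4, exceeding Dixon's 95% critical value, which chance alone gives in about 1 in 20 sets. In GFP that ratio was 0.858 for Serpinb1a (replicate 1), 0.903 for Tnfsf9 (replicate 2), 1 for Krt8 (replicate 2), 0.942 for Krt76 (replicate 4), 0.867 for Chchd10 (replicate 1), 0.968 for Ifit1 (replicate 3), 0.921 for Vegfa (replicate 2). For mean list levels in GFP it was 0.901 for smooth muscle and fibroblast markers (replicate 2), 0.838 for blood cell and macrophage markers (replicate 4). In VEGF-down that ratio was 0.846 for Adgrg2 (replicate 4), 0.977 for Agt (replicate 4), 0.832 for Aldoc (replicate 1), 0.931 for Sfrp2 (replicate 4), 1 for Ly6e (replicate 1). For mean list levels in VEGF-down it was 0.904 for chromatin silencing enzymes (replicate 1), 0.848 for hypoxia and glycolysis (replicate 4). In VEGF-up that ratio was 0.891 for Hoatz (replicate 3), 0.981 for Ctif (replicate 2), 0.926 for Myh1 (replicate 3), 0.945 for Agt (replicate 2), 0.922 for Postn (replicate 1). For mean list levels in VEGF-up it was 0.912 for immediate-early genes (replicate 1). GFP replicate 2 held 4 of the 9 in GFP. Each of the 39 genes named by rank with a pooled call kept that call and its direction without any 1 array.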

How the results depend on the processing

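All 39 genes named by rank with a pooled call kept their direction under the 20 alternatives, and 15 lost the call, each with the common mean only. With spike-in scaling 14703 probe sets passed, 2.08% of them rising, 1854 on all 8 arrays and 12865 of like size, Vegfa passed (-0.40), and Prg4 (-0.22) and Mmp3 (-0.20) turned sign. Genes without a pooled call gained one as Ly6e (-0.79) and Chchd10 (-0.37) with spike-in scaling, as Cdsn (0.21), Angptl4 (0.14) and Prg4 (0.18) with the offset, as Ly6e (-0.80) without GFP replicate 4 and as Angptl4 (0.16) without VEGF-down replicate 3. With the common mean 738 passed. Leaving out 1 array gave 3042 to 4663 calls, 933 to 1460 on all remaining shRNA arrays, 2042 to 3535 of like size, 36% to 48.7% rises and a Vegfa difference of -0.18 to -0.10; the highest counts and the lowest share came without VEGF-up replicate 3. The replicate block, tried although deviations of same-numbered arrays correlated at only -0.08 to 0.13, gave 1527 rises and 1663 falls (3190 calls). Quantile scaling gave 1900 rises and 1706 falls. Of 4 endothelial marker calls, 2 were left without GFP replicate 2 and 7 were made without VEGF-up replicate 3; the 1 blood cell call became 2 without VEGF-down replicate 3 and 3 without VEGF-up replicate 3. The cause was not tested. At or below background lay 37.0% of probe sets, where differences carry little information.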

Other observations

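Some genes that changed on all 8 arrays lie next to each other. Of 16919 pairs of tested genes adjacent in the RefSeq gene order of GRCm38.p6, 47 had both members past the pooled test with all 8 shRNA arrays on the same side of GFP, 16 pairs above and 31 below. On chromosome 13, Serpinb1a, Serpinb6b, Serpinb9 and Serpinb9b follow each other, with pooled differences of 1.30 ± 0.08, 0.69 ± 0.03, 0.51 ± 0.03 and 1.32 ± 0.05. Related serpins may share probe sequence, which was not tested. Other such pairs were Ccl2 with Ccl7 on chromosome 11, Col4a1 with Col4a2 on chromosome 8, H19 with Igf2 on chromosome 7, and on chromosome 7 Ctsc, a lysosomal protease, with Rab38, a trafficking protein, at 0.86 and 0.63. No test was made of how many such pairs the gene order would hold by itself.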
